A study of Homo sapiens with 31 samples.

Results

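MDM2, CDKN1A, ZMAT3, SESN1, BTG2, GADD45A, FDXR, TP53I3 and XPC are 9 genes that the transcription factor p53 is known to switch on. They were followed in NALM-6, a human cell line of precursor B-cell acute lymphoblastic leukaemia (preB-ALL), by taking the rows of the count table whose Ensembl identifier carries one of these symbols. All 9 symbols were found among the 30667 rows of the table. The rule itself uses symbols and no measured value, although the list was drawn up with earlier results of these data known.

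p53 is held at a low level in resting cells because MDM2, itself a p53 target, ubiquitinates it and sends it to the proteasome. When DNA damage, oncogene activity or ribosome stress weakens this feedback, p53 accumulates, binds its response elements and raises a shared set of genes that stop the cell cycle, repair DNA, alter metabolism or start apoptosis. In leukaemia of the B lineage this pathway is one of the routes by which cytotoxic drugs kill the cells, and the 9 genes are widely read as its transcriptional output.

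The libraries came from cells transduced with a lentiviral vector that expressed a short hairpin RNA together with a red fluorochrome. The hairpin was directed either against XIAP, the X-linked inhibitor of apoptosis protein (sh-XIAP), or against eGFP as control (sh-CTRL), and it was driven by the EF1α promoter (moderate knockdown, KD) or by the stronger SFFV promoter (strong KD). The 4 constructs are named by promoter and hairpin, as in SFFV/sh-XIAP, and transduced cells were collected on day 4, day 10 and day 13, which gave 31 libraries in 12 groups of 2 or 3. Every group carried a vector, so that untransduced cells are not among these samples, and each was a sorted population of transduced cells rather than a clone. The sample labels describe cells kept in vitro, whereas the description of the series speaks of murine bone marrow, and the labels do not say whether replicates were separate cultures, so p-values measure the spread between these libraries, which may be technical.

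Each value below is a number of unique molecular identifiers (UMIs), or that number scaled to the total of the library (CPM). The libraries held between 312852 and 1153668 UMIs, with medians of 751952.5 at day 4, 482267 at day 10 and 603822 at day 13. All 10 B-lineage markers examined had UMIs in every library, and their summed level ran from 4400 to 4889 CPM at day 4, from 4580 to 5041 at day 10 and from 4760 to 5036 at day 13. T-lineage, myeloid and erythroid markers summed to at most 6.39, 25.6 and 5.29 CPM in any library, and CD3D, CD3E, HBA1 and HBA2 were not analysed here. Of the libraries of days 10 and 13, the 2 smallest, EF1α/sh-XIAP replicate 2 and SFFV/sh-XIAP replicate 2 of day 10, stood apart on the first principal component, with scores of 63.2 and 27.6 against at most 2.9 in the others. That component held 8.45% of the variance. XIAP, the targeted gene, was counted only 196 times over all libraries. At days 10 and 13 together it lay at 4.50 to 15.4 CPM with SFFV/sh-CTRL against 6.35 to 14.6 CPM with SFFV/sh-XIAP, and at 3.81 to 18.1 CPM with EF1α/sh-CTRL against 7.63 to 11.5 CPM with EF1α/sh-XIAP. The groups overlapped, XIAP was called in none of the 13 comparisons, and its log2 difference at days 10 and 13 was −0.26 ± 0.40 (SE) for strong and −0.17 ± 0.37 (SE) for moderate KD. The 95% intervals of the ratio ran from 0.480 to 1.45 and from 0.533 to 1.49, so XIAP transcripts were not lower beyond the spread between libraries, and a fall to less than 0.480 or 0.533 of control lay outside the intervals. Strong KD and moderate KD therefore stand below for the labelled constructs, SFFV/sh-XIAP and EF1α/sh-XIAP, and not for a loss of XIAP transcripts measured here. The paper measured XIAP protein by Western blot in NALM-6 cells and reports a moderate loss under EF1α and a strong one under SFFV. RNA counts do not measure that protein.

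A gene is called below when its limma-voom p, adjusted after Benjamini-Hochberg over all genes tested, was at most 0.25, the threshold of the study. All 9 genes passed the filter on low counts in each comparison. Of their 117 fitted differences, 2 were called, both of CDKN1A between days, and 9 (7.69%) had an unadjusted p under 0.05. Over all genes tested, that share lay between 4.35% and 6.46% in the 13 comparisons.

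p53 binds DNA through pairs of a 10-base half-site, so promoter sequences were searched for 1 half-site on both strands (the motif reads the same on either). The promoter windows of RefSeq on GRCh38.p14, which reach from 250 bases before a start to 50 bases after it, were available for 8 of the 9 genes and not for GADD45A. A half-site occurred in 2 of the 15 windows of these genes, 1 each of SESN1 and FDXR, and in 6.63% of all 35116 windows. The 150 bases before the start are shown for both, and for CDKN1A, the gene whose level changed, with the half-site in capitals:

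CDKN1A (plus strand, chr6:36678564-36678713): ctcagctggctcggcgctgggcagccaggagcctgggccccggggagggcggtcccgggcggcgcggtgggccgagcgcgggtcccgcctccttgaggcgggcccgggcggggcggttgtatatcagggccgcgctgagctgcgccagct

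SESN1 (minus strand, chr6:109008989-109009138): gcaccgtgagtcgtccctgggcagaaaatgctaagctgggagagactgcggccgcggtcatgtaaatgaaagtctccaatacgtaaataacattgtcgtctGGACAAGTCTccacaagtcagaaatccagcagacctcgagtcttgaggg

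FDXR (minus strand, chr17:74872995-74873144): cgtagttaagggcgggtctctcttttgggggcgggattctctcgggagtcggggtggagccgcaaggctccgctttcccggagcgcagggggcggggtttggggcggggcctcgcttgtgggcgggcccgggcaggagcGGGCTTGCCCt

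The half-site began 49 bases before the start in 1 of the 3 windows of SESN1. For FDXR it began 11 bases before the start in 1 of 2 windows. The SESN1 window shown lies inside the annotated gene (chr6:108986437-109094819, minus strand) and not at its outermost start. A match is a run of letters and not a shown binding site, and the absence of one in the CDKN1A window says only that these letters are not in it. The response elements known for CDKN1A lie farther upstream, outside this window.

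The 9 genes were expressed at very different levels. CDKN1A, which encodes the cyclin-dependent kinase inhibitor p21, was the most abundant with 8104 UMIs over all libraries and a range of 305 to 464 CPM, and ranked 348th of all rows. MDM2 followed with 3203 UMIs (125 to 190.3 CPM), and both stood apart from every gene below them in all 31 libraries. GADD45A (1753 UMIs, 58.3 to 107 CPM) and ZMAT3 (1684 UMIs, 62.9 to 106 CPM) could not be ordered, since GADD45A was the higher of the pair in only 17 of 31 libraries and their mean difference of 3.93 CPM was smaller than its SD of 17.4 CPM. BTG2 came next with 1230 UMIs (28.8 to 83.1 CPM) and was below ZMAT3 in 30 of 31 libraries.

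The remaining genes were sparsely counted. FDXR, SESN1 and XPC had 511, 491 and 488 UMIs and mean levels of 24.7 ± 5.79, 23.9 ± 6.24 and 23.8 ± 8.13 CPM (SD, n = 31), which their spread did not separate. TP53I3 was lowest with 286 UMIs and 13.3 ± 5.25 CPM (SD, n = 31), and lay below XPC in 25 of 31 libraries. One tag was counted per molecule, so these levels are comparable between genes without a correction for length, apart from differences in how well each 3′ end is captured.

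The spread between replicates was close to what counting alone gives for most of these genes. The variance of UMIs within the 12 groups, divided by the variance expected from counting, ran from 0.51 for ZMAT3 to 1.75 for XPC, and was 0.983 for CDKN1A and 1.01 for MDM2. Precision therefore followed abundance. Over all 31 libraries the coefficient of variation was 10.7% for CDKN1A and 39.3% for TP53I3, where counting alone would give 6.62% and 35.2%. The 6.62% and 35.2% cover counting error only, while the 10.7% and 39.3% also hold differences between days, constructs and replicates.

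**Figure D1:**
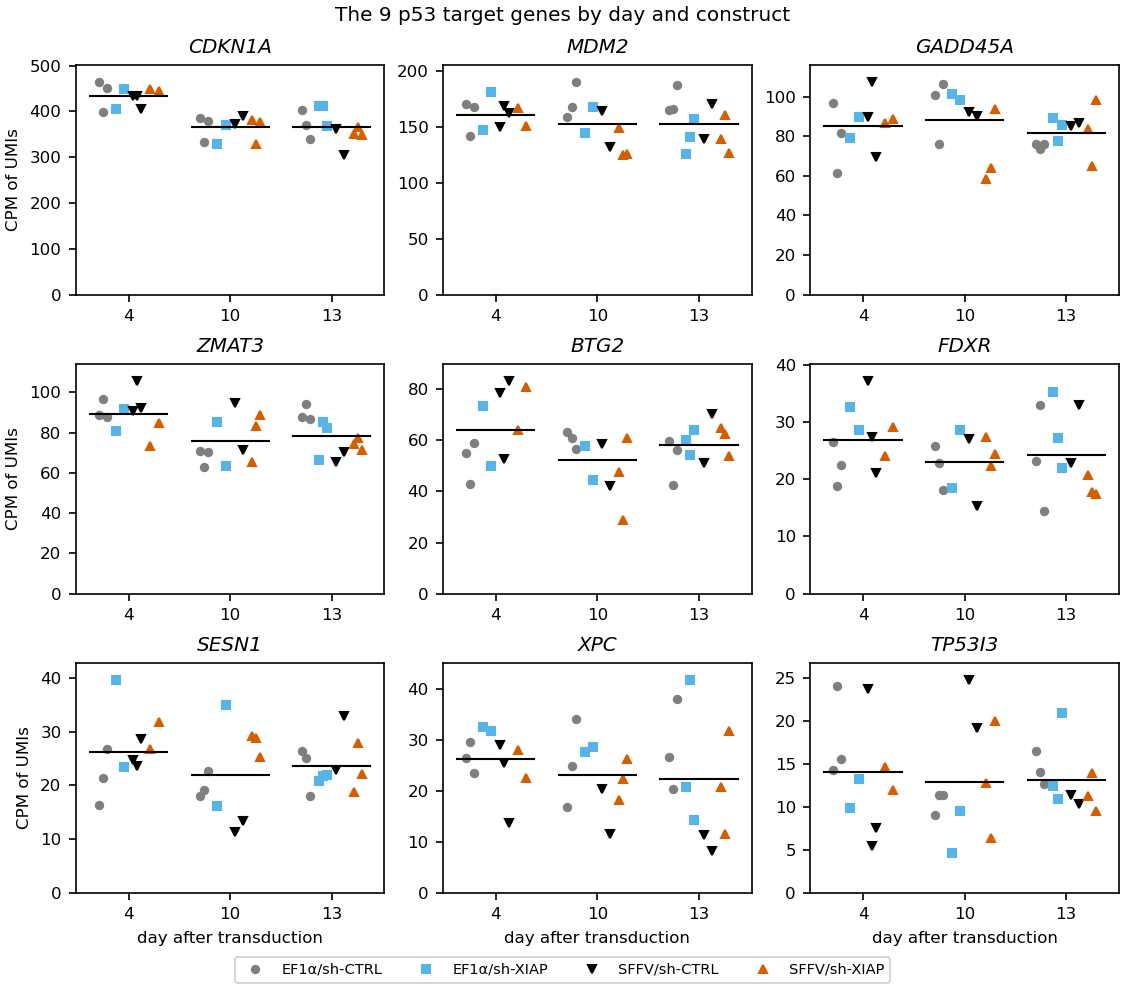
CPM of UMIs (vertical axes, from 0, a separate scale for each gene) of the 9 genes at days 4, 10 and 13 after transduction (horizontal axes). Each point is 1 of 31 libraries, marked by construct, and black lines are the means of a day. Of these 9 genes, only CDKN1A has all day 10 points below all day 4 points. How many of all genes tested do so was not counted.

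The first comparison asked whether the target genes changed with time after transduction, with construct as a term in the fit. CDKN1A was lower at days 10 and 13 than at day 4. Its level at day 4 ran from 399.5 to 464 CPM with a median of 439, at day 10 from 329 to 390.1 CPM with a median of 376, and at day 13 from 305 to 413 CPM with a median of 366. All 10 libraries of day 10 lay below all 10 of day 4, whereas 3 of the 11 libraries of day 13 lay above the lowest library of day 4. How many of all genes tested separate days 10 and 4 in this way was not counted. The mean of CDKN1A fell from 434 ± 22.5 CPM (SD, n = 10) to 365 ± 24.3 (SD, n = 10) and 367 ± 32.5 CPM (SD, n = 11).

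On the log2 scale the fitted difference of CDKN1A was −0.27 at day 10 (SE 0.042, 95% interval −0.36 to −0.19, limma-voom adjusted p = 9.31e-05) and −0.27 at day 13 (SE 0.039, interval −0.35 to −0.19, limma-voom adjusted p = 3.98e-05). These correspond to 0.828 and 0.830 times the level of day 4. Days 13 and 10 differed by 0.00 (SE 0.040, interval −0.08 to 0.08), which was not called. CDKN1A was thus the 1 called gene of the 9 in each comparison with day 4. As background, 0.26% of the 17676 genes tested were called at day 10, 0.515% at day 13, and 0.0226% between days 13 and 10. Between days 13 and 10 limma-voom, edgeR and DESeq2 called 0 of the 9 genes, and 0 had an unadjusted limma-voom p under 0.05.

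The mean of CDKN1A was lower at both later days than at day 4 in each of the constructs. With EF1α/sh-CTRL the libraries held 464, 399.5 and 452 CPM of CDKN1A at day 4, 386, 334 and 378 at day 10, and 404, 370.0 and 340.0 at day 13. With EF1α/sh-XIAP they held 406 and 450.1 CPM at day 4, 329.5 and 371 at day 10, and 413, 411 and 367 at day 13. Only in this construct did day 13 overlap with day 4 beyond a single library.

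With SFFV/sh-CTRL the values were 433, 433 and 406 CPM at day 4, 374 and 390.1 at day 10, and 362 and 305 at day 13. With SFFV/sh-XIAP they were 449 and 445 CPM at day 4, 381, 329 and 378 at day 10, and 351, 366 and 349 at day 13. In both SFFV constructs every later library lay below every library of day 4. These groups are small, and how many of all genes tested separate in this way within a construct was not counted.

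Fitted within a single construct, an alternative added after seeing the data, the day 10 difference of CDKN1A with sh-CTRL was −0.31 under EF1α and −0.18 under SFFV, and with sh-XIAP it was −0.37 and −0.29, none of them called (limma-voom adjusted p from 0.413 to 0.921). The day 13 differences were −0.26 and −0.37 with sh-CTRL and −0.18 and −0.34 with sh-XIAP, of which that of SFFV/sh-XIAP was called (limma-voom adjusted p = 0.137). No dependence of the day difference on the hairpin was detected, since from day 4 to day 13 the strong KD effect on CDKN1A changed by 0.02 (SE 0.13) and the moderate KD effect by 0.08 (SE 0.10), neither called. None of the 9 genes was called in these comparisons of change (limma-voom adjusted p of at least 0.919 and 0.955), 0 had an unadjusted p under 0.05, and 0% and 0.00566% of all genes tested were called.

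**Figure D2:**
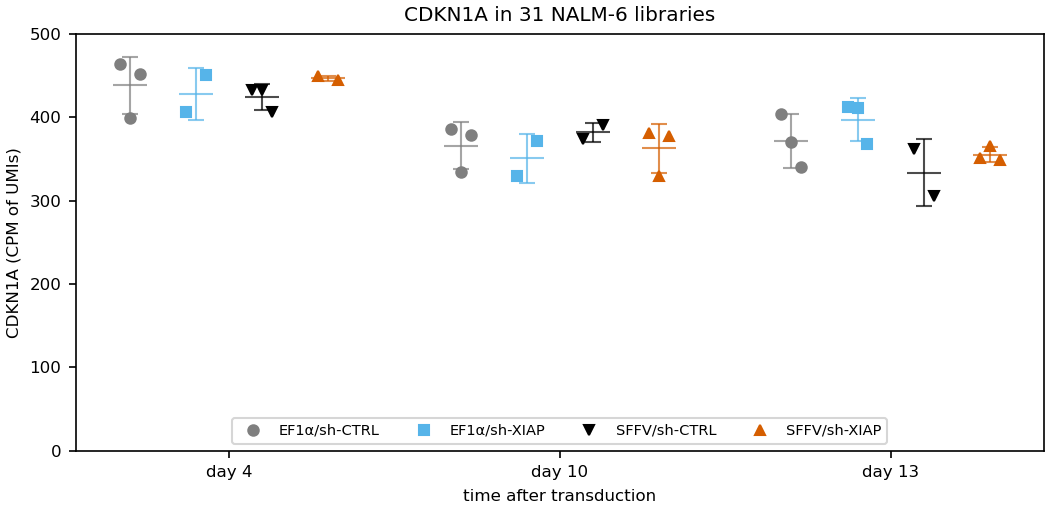
CDKN1A in CPM of UMIs (vertical axis, from 0) by day after transduction and construct. Points are single libraries, horizontal bars the mean of a group and whiskers its SD; day 4 libraries lie at 399.5 to 464 CPM, day 10 libraries at 329 to 390.1 CPM and day 13 libraries at 305 to 413 CPM.

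Depth moved with the days too, being highest at day 4. With log2 total UMIs as a covariate, added after seeing the data, CDKN1A differed by −0.26 at day 10 and by −0.26 at day 13 (limma-voom adjusted p = 0.000872 and 0.000119). When all libraries were thinned to the smallest total, the day 10 difference was −0.18 and no longer called (limma-voom adjusted p = 0.775), and that of day 13 was −0.23 (adjusted p = 0.241). Without the 2 smallest later libraries CDKN1A differed by −0.26 at day 10 and by −0.27 at day 13 (limma-voom adjusted p = 0.000709 and 3.82e-05). Each day is 1 time of sampling, so day and any batch of handling or sequencing cannot be told apart, and in bulk RNA fewer cells expressing a gene cannot be told apart from less RNA per cell.

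The gene products that act beside p21 on the cell cycle were not called. BTG2, an antiproliferative factor that recruits a deadenylase to messenger RNAs, stood at 42.9 to 83.1 CPM (median 61.5) at day 4, 28.8 to 63.3 CPM (median 57.1) at day 10 and 42.3 to 70.1 CPM (median 59.6) at day 13. Its log2 differences from day 4 were −0.26 (SE 0.12, unadjusted p = 0.0342, limma-voom adjusted p = 0.738) and −0.11 (SE 0.11). The days overlapped, and 1 of 10 day 10 libraries was above the day 4 median. GADD45A, a stress protein linked to arrest and DNA repair, was the only gene of the 9 with a positive day 10 difference, 0.04 (SE 0.096), and had −0.07 (SE 0.092) at day 13.

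MDM2, the ubiquitin ligase of the feedback loop, ranged from 142 to 182 CPM (median 165) at day 4, from 125 to 190.3 CPM (median 154) at day 10 and from 126 to 188 CPM (median 157) at day 13. The ranges overlapped, and its log2 differences from day 4 were −0.12 (SE 0.067, interval −0.26 to 0.01) and −0.06 (SE 0.063, interval −0.19 to 0.06). Both intervals held 0.

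ZMAT3, a zinc-finger protein that binds RNA and alters splicing, stood at 73.5 to 106 CPM (median 89.6) at day 4, 62.9 to 94.6 CPM (median 71.1) at day 10 and 65.5 to 94.1 CPM (median 77.5) at day 13. Only 1 library of each later day exceeded the day 4 median. The differences were −0.22 (SE 0.089, unadjusted p = 0.0151, limma-voom adjusted p = 0.637) and −0.15 (SE 0.082). SESN1, a sestrin that restrains mTORC1 signalling, differed by −0.31 (SE 0.17) and −0.22 (SE 0.15), with overlapping days.

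The 2 genes of redox metabolism and the repair gene gave wide intervals. FDXR, the mitochondrial ferredoxin reductase, differed from day 4 by −0.21 (SE 0.16) and −0.22 (SE 0.15), and TP53I3, a quinone oxidoreductase, by −0.06 (SE 0.24) and 0.01 (SE 0.22). XPC, which recognises damage in nucleotide excision repair, differed by −0.23 (SE 0.19) at day 10 and −0.40 (SE 0.18, unadjusted p = 0.0324, limma-voom adjusted p = 0.719) at day 13. With such errors a difference as small as that of CDKN1A would lie within the interval around 0.

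Taken as a list, 8 of the 9 genes had a negative difference at day 10 and 8 at day 13, with medians of −0.22 and −0.15, where 50.1% and 50% of all genes tested were negative and the medians were 0.00. The 9 genes summed to 926 ± 40.1 CPM (SD, n = 10) at day 4, 815 ± 53.5 (SD, n = 10) at day 10 and 821 ± 38.3 CPM (SD, n = 11) at day 13, and CDKN1A made up most of that difference. Both comparisons share the day 4 libraries and are not independent of each other.

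**Figure D3:**
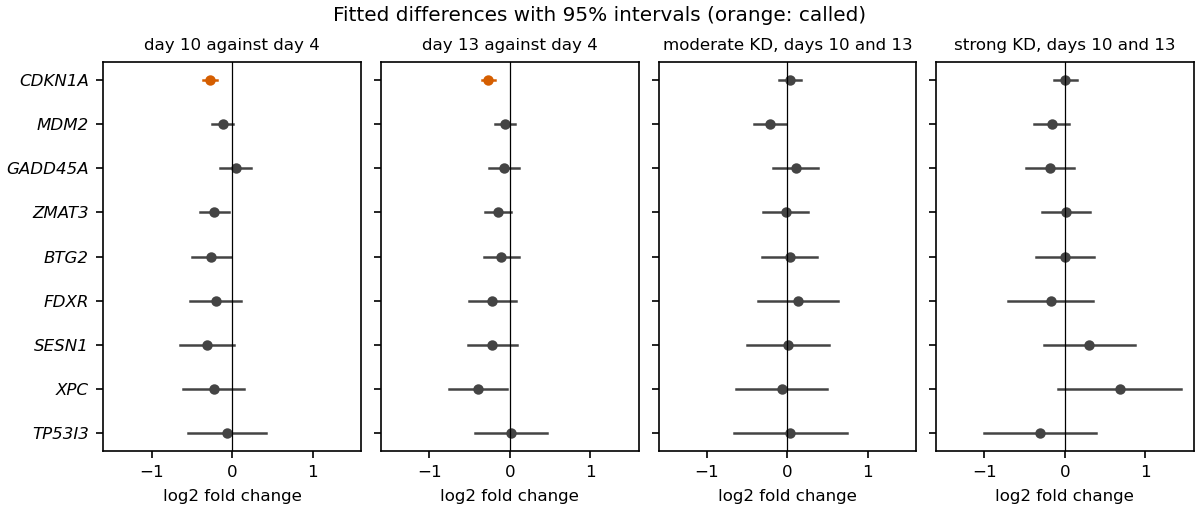
Fitted log2 differences (horizontal axes) of the 9 genes (vertical axis, ordered by abundance) for days 10 and 13 against day 4 and for moderate and strong KD at days 10 and 13. Points are limma-voom estimates, lines their 95% intervals, and orange marks called genes; CDKN1A is called in both day panels and no gene in the KD panels.

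The second set of comparisons asked whether XIAP knockdown changed the target genes at days 10 and 13, the days used in the study, with day as a term. None of the 9 genes was called for strong KD, for moderate KD or for the difference between them, by limma-voom, edgeR or DESeq2. At an unadjusted limma-voom p under 0.05 there were 0, 1 and 0 of them. Over all genes 0.0792%, 0.017% and 0.00566% were called.

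CDKN1A was at 305 to 390.1 CPM (358 ± 36.8, SD, n = 4) with SFFV/sh-CTRL and at 329 to 381 CPM (359 ± 19.7, SD, n = 6) with SFFV/sh-XIAP. It was at 334 to 404 CPM (369 ± 27.2, SD, n = 6) with EF1α/sh-CTRL and at 329.5 to 413 CPM (378 ± 34.6, SD, n = 5) with EF1α/sh-XIAP. The groups overlapped throughout. The log2 difference was 0.01 (SE 0.073) for strong KD, where the 95% interval of the ratio ran from 0.907 to 1.11, and 0.03 (SE 0.067) for moderate KD, with an interval of 0.931 to 1.12.

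MDM2 was the member with the lowest unadjusted p for moderate KD. Under EF1α it ranged from 159 to 190.3 CPM (median 167) in the control cells and from 126 to 168 CPM (median 145) in the knockdown, and under SFFV from 133 to 171 CPM (median 152) in the control cells and from 125 to 161 CPM (median 133) in the knockdown. Levels were highest with EF1α/sh-CTRL and lowest with SFFV/sh-XIAP by their medians, and the ranges of all 4 constructs overlapped. The log2 difference was −0.22 (SE 0.099, unadjusted p = 0.0332, limma-voom adjusted p = 0.992) for moderate and −0.16 (SE 0.11, adjusted p = 0.935) for strong KD, neither called.

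SFFV/sh-XIAP was also compared with the average of all 3 remaining constructs, a contrast in which 0.837% of 17683 genes were called. None of the 9 was among them by limma-voom, edgeR or DESeq2, and 1 had an unadjusted p under 0.05. That gene was again MDM2, with −0.19 (SE 0.076, unadjusted p = 0.0155, limma-voom adjusted p = 0.57). This contrast shares all its libraries with those above. The differences of the other 8 genes ran from −0.18 for FDXR to 0.19 for SESN1.

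XPC varied most between constructs. At days 10 and 13 the 4 libraries of SFFV/sh-CTRL held 20.3, 11.5, 11.4 and 8.25 CPM, from 23 UMIs in all, whereas those of EF1α/sh-CTRL ran from 16.8 to 37.97 CPM (median 25.6), those of EF1α/sh-XIAP from 14.3 to 41.6 CPM (median 27.7) and those of SFFV/sh-XIAP from 11.4 to 31.7 CPM (median 21.5). Only 1 of the 4 SFFV/sh-CTRL libraries reached the range of EF1α/sh-CTRL. The promoter comparison, SFFV/sh-CTRL against EF1α/sh-CTRL, gave a log2 difference of −0.91 (SE 0.38, unadjusted p = 0.0195, limma-voom adjusted p = 0.923), and strong KD gave 0.68 (SE 0.38, interval −0.08 to 1.44, adjusted p = 0.917).

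Neither was called, and both rest on the same SFFV/sh-CTRL libraries. At day 4 the SFFV/sh-CTRL libraries held 28.9, 25.5 and 13.6 CPM of XPC and those of EF1α/sh-CTRL 26.4, 29.5 and 23.4 CPM, so the lower level was then seen in 1 library. XPC lies at chr3:14145147-14178783 on the minus strand (GENCODE 29, GRCh38), where the annotation also places LSM3, AC090004.1 and AC093495.1 on the other strand. The same holds for MDM2 (chr12:68808176-68850686, plus strand), which overlaps CPM, the gene of carboxypeptidase M, and for TP53I3 (chr2:24077433-24085861, minus strand), which overlaps FAM228B. SESN1 (chr6:108986437-109094819, minus strand) overlaps AL390208.1, also on the other strand. Whether the counting used strand is not given in the sources used here, so reads of such partners may not have been told apart. CDKN1A (chr6:36676460-36687339, plus strand) overlaps no other row of the table.

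No other gene of the 9 had an unadjusted p under 0.05 in the promoter comparison at days 10 and 13, in which 0.00566% of all genes were called. For strong KD the remaining differences were 0.02 (SE 0.15) for ZMAT3, 0.00 (SE 0.18) for BTG2, −0.18 (SE 0.15) for GADD45A, 0.30 (SE 0.28) for SESN1, −0.18 (SE 0.26) for FDXR and −0.31 (SE 0.34) for TP53I3. For ZMAT3 and BTG2 the 95% intervals of the ratio were 0.820 to 1.25 and 0.777 to 1.29. The least abundant gene, TP53I3, was bounded only to between 0.500 and 1.31 times the control.

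At day 4, before the days used in the study, none of the 9 genes was called for strong KD, moderate KD or the promoter by limma-voom, edgeR or DESeq2, and 0, 0 and 1 had an unadjusted p under 0.05. Over all 18336 genes tested 0.0109%, 0.0491% and 0.0164% were called. The 1 gene was BTG2, which held 54.9, 42.9 and 58.9 CPM with EF1α/sh-CTRL and 78.3, 52.7 and 83.1 CPM with SFFV/sh-CTRL. These ranges overlapped, and the log2 difference was 0.40 (SE 0.19, unadjusted p = 0.0397, limma-voom adjusted p = 0.996). CDKN1A differed by 0.07 (SE 0.079) for strong and −0.03 (SE 0.074) for moderate KD.

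The wider p53 pathway was examined with 3 lists taken from general knowledge of the pathway. The first held 69 further genes that p53 raises, of which 62 had a row and 55 were tested between days. Of these 0 rose and 0 fell at day 10, and 0 rose and 1 fell at day 13, by limma-voom, where 0.26% and 0.515% of all genes were called. Without a filter on low counts, in a fit that called 8868 of 29756 rows, 4 rose and 10 fell of 61 at day 10, CCNG1 and RPS27L among them. Positive differences were seen for 13 and 16 of the 55, with medians of −0.09 and −0.10. Over all genes tested the medians were 0.00, and 50.1% and 50% of the differences were negative. Neither strong nor moderate KD at days 10 and 13 gave a call in this list, with medians of −0.06 and 0.01.

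The 1 gene that fell was RPS27L, a ribosomal protein S27-like protein raised by p53. It ranged from 88.5 to 139 CPM (median 116) at day 4, from 76.2 to 124 CPM (median 95.6) at day 10 and from 70.6 to 112 CPM (median 99.0) at day 13. The days overlapped, and the log2 difference at day 13 was −0.28 (SE 0.077, limma-voom adjusted p = 0.169). RPS27L was called in 10 of 20 alternatives other than leaving out 1 library, edgeR and DESeq2 among them, with differences of −0.40 to −0.08. It was lost at a threshold of 0.05, with limma-trend (adjusted p = 0.552), after thinning (0.5), with the depth covariate (0.264), and in the 6 fits restricted to 1 hairpin or construct (0.496 to 0.98). It was also lost in 9 of 31 fits that left out 1 library, while the differences of those 31 stayed between −0.32 and −0.24. The RPS27L libraries concerned were 5 of day 4 (EF1α/sh-CTRL replicate 1, both of EF1α/sh-XIAP and both of SFFV/sh-XIAP) and 4 of day 13 (EF1α/sh-CTRL replicate 2, EF1α/sh-XIAP replicates 1 and 3, and SFFV/sh-XIAP replicate 2), with limma-voom adjusted p between 0.26 and 0.454. Its promoter window holds a half-site 59 bases before the start, shown in capitals within the 150 bases before it (minus strand, GRCh38.p14, chr15:63157478-63157627).

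RPS27L: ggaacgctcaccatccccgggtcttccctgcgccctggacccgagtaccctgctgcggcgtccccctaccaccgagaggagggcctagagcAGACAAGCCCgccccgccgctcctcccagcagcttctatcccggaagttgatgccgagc

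Of the 77 windows of this list, 10 held a half-site. The most abundant genes of the list were CYFIP2, a subunit of the actin-regulating WAVE complex, and CCNG1, which encodes cyclin G1. CYFIP2 differed from day 4 by 0.02 (SE 0.046) and 0.00 (SE 0.043). CCNG1 differed by −0.16 (SE 0.069, limma-voom adjusted p = 0.719) and −0.03 (SE 0.063). Neither was called.

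The second list held 20 regulators of p53, of which 19 had a row and were tested. By limma-voom none was called between days or for KD at days 10 and 13, with medians of 0.00 at day 10 and 0.01 at day 13. In fits of a single construct RPL11 was called between days, lower at both later days than at day 4 with SFFV/sh-CTRL, and higher at day 13 than at day 10 with EF1α/sh-CTRL. At day 4, RPL11, a ribosomal protein that binds MDM2, was called lower with strong KD (log2 −0.12, SE 0.022, limma-voom adjusted p = 0.0175) and higher with SFFV than EF1α in the sh-CTRL cells (0.09, SE 0.017, adjusted p = 0.0438). Its levels were 3169, 3156 and 3211 CPM with EF1α/sh-CTRL, 3425, 3177 and 3353 CPM with SFFV/sh-CTRL, and 3033 and 3183 CPM with SFFV/sh-XIAP. The range of RPL11 with SFFV/sh-CTRL thus overlapped with that of each other group named.

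Both calls rest on the SFFV/sh-CTRL libraries of day 4. Without SFFV/sh-CTRL replicate 1 the differences were −0.08 and 0.05 and neither was called (limma-voom adjusted p = 0.963 and 0.98). The RPL11 strong KD call was also lost without SFFV/sh-XIAP replicate 1 (adjusted p = 0.959), and the promoter call without EF1α/sh-CTRL replicate 3, SFFV/sh-CTRL replicate 3 or SFFV/sh-XIAP replicate 3 (adjusted p = 0.98, 0.797 and 0.287). edgeR and DESeq2 called neither. The table also holds rows of 3 RPL11 pseudogenes with 2089 UMIs, against 65294 of RPL11, so reads could have been split between them. RPL5, the other abundant ribosomal regulator, differed by −0.02 (SE 0.017) at day 10 and −0.01 (SE 0.016) at day 13.

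The third list held 30 cell cycle genes that are repressed through p21 and the DREAM complex, all tested. By limma-voom none was called in any of the 13 comparisons. The exception among the alternatives was the fit without a filter on low counts, in which BUB1B and FOXM1 were called higher at day 10 than at day 4. That fit called 8868 of all 29756 rows. In the main fit the medians of the list were 0.06 at day 10 and 0.03 at day 13, with positive differences in 19 and 20 of 30 genes. Over all genes tested the medians were 0.00, and 50.1% and 50% of the differences were negative. Both comparisons share the day 4 libraries, and whether the list differs from all genes was not tested. PCNA, the sliding clamp of DNA replication, differed by −0.04 (SE 0.046) and 0.01 (SE 0.042), and TOP2A, the topoisomerase of dividing cells, by 0.00 (SE 0.055) and −0.02 (SE 0.052).

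Among 801 genes with at least 0.5 times the UMIs of CDKN1A, the mean levels of PRDX1, TTN and PIK3AP1 over the 12 groups were most like those of CDKN1A, with Pearson correlations of log2 CPM of 0.896, 0.842 and 0.824. The 12 means share libraries, depth and days, and the correlations are given as a description. Of the paralogs of the target genes, BTG1 was more abundant than BTG2, with 4614 UMIs (179.7 to 266 CPM), while CDKN1B and CDKN1C had 959 and 200 UMIs, against 8104 of CDKN1A. MDM4 had 1207 UMIs, SESN2 784, SESN3 502, ZMAT2 1411, ZMAT1 302, BTG3 329 and GADD45B 229. GADD45G had 1 UMI in all libraries together.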

How the data were processed

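The authors deposited 1 table of UMI counts per gene, made by prime-seq, a bulk 3′ RNA-seq method in which each molecule carries a UMI, and the counts are raw and not normalised. The submitters' processing notes name STAR 2.6.0a and human and mouse genome builds with no role. Ensembl identifiers were named after GENCODE 29, which held 29928 of 30667 rows. Genes of the lists without a matching row were not analysed here.

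Genes over 1 CPM in at least a share of 0.333 of the libraries of a fit were kept, scaled by TMM (edgeR 4.0.16) and tested with limma-voom (limma 3.58.1, R 4.3.3), with Benjamini-Hochberg adjustment over all genes tested and a threshold of 0.25. Libraries of days 10 and 13 were fitted with construct and day, day 4 libraries alone, and days over all 31 libraries. edgeR's quasi-likelihood test, DESeq2 1.42.0, other filters and scalings, thinning and leaving out libraries were alternatives. The fits were tested on simulated data. The study left out outlier libraries on a principal component plot, but which ones is not given in the sources used here. Some groups hold 2 libraries where others hold 3, so these outliers may already be absent from the deposited counts. That is not stated, and no further library was left out. Libraries held 312852 to 1153668 UMIs.

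Named were the 9 genes, XIAP, paralogs for their level, called genes of the 3 lists (otherwise the 2 most abundant), and the 3 genes most like CDKN1A. The genes and lists were chosen with earlier results of these data known. No shared deviation of replicates with the same number was detected (mean residual correlation −0.00055 over 149 pairs of libraries). Single pairs lay between −0.0264 and 0.0258, and pairs with different numbers between −0.0237 and 0.0264. With all pairs so near 0, this measure does not decide whether replicates came from shared cultures.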

Additional observations from a re-analysis of the deposited data

Results flagged for a closer look

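BTG2 in EF1α/sh-CTRL at day 13, replicate 2, stood at 42.3 CPM, from 27 UMIs, while the other 5 libraries of this construct at days 10 and 13 lay between 56.1 and 63.3 CPM. The gap to the nearest library made up 0.656 of the range of the 6, which is above Dixon's 95% critical value. This was 1 of 36 sets of a gene and a construct examined in this way, and chance alone is set to give about 1 in 20.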

How the results depend on the processing

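Of 489 recomputed counts of called genes among the 9, 480 equalled the main count, including all 290 that left out 1 library. In 11 of the 13 comparisons that count was 0, so most of these recomputations only show 0 again and say little about stability. Without a filter on low counts, 5 of the 9 were called at day 10 against day 4 (BTG2, CDKN1A, MDM2, SESN1 and ZMAT3), in a fit that called 8868 of 29756 rows, of which 7106 failed the filter and held a median of 1 UMI. After thinning to the smallest total, a single seeded draw, 0 were called at day 10. Within EF1α/sh-CTRL, EF1α/sh-XIAP or SFFV/sh-CTRL alone, 0 were called at either later day, and within SFFV/sh-XIAP alone 0 at day 10, in fits with fewer libraries.

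CDKN1A kept its sign under all 51 alternatives to each day comparison and was called in 46 at day 10 and 48 at day 13, with log2 differences of −0.37 to −0.18 at both. Leaving out 1 library gave −0.28 to −0.24 at day 10 and −0.28 to −0.26 at day 13, called each time. With the replicate block CDKN1A differed by −0.27 at both days (limma-voom adjusted p = 0.00026 and 0.000124), and 1 of the 9 genes was called at each later day and 0 elsewhere, as without it.

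Counts over all genes moved more. At days 10 and 13 they ranged over the alternatives, other than leaving out 1 library, from 0 to 49 for strong KD, 0 to 23 for moderate KD, 0 to 34 for their difference, 41 to 217 for strong KD against the other constructs and 0 to 5 for the promoter. At day 4 the ranges were 0 to 25, 0 to 29 and 0 to 12 for strong KD, moderate KD and the promoter. Between days they were 11 to 8868, 21 to 128 and 0 to 81, and for the changes of the strong and moderate KD effects 0 to 5 and 0 to 6. Leaving out 1 library moved them to 2 to 45 for strong KD (lowest without SFFV/sh-CTRL day 10 replicate 1, highest without SFFV/sh-XIAP day 10 replicate 2), 0 to 7 for moderate KD, 0 to 28 for their difference, 56 to 216 for strong KD against the other constructs (lowest without SFFV/sh-XIAP day 10 replicate 3) and 0 to 1 for the promoter. At day 4 such fits gave 0 to 12, 3 to 17 and 0 to 10, between days 25 to 47 (lowest without EF1α/sh-XIAP day 4 replicate 2), 49 to 107 (lowest without EF1α/sh-XIAP day 13 replicate 3) and 1 to 10, and for the changes 0 to 9 and 0 to 10. The background shares printed beside the results therefore depend on single libraries. The causes were not tested. XIAP, TP53I3, XPC, SESN1 and FDXR had 511 UMIs or fewer each, which limits what could be detected in them.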
